A study of Mus musculus with 12 samples.

Results

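Fibronectin (Fn1), periostin (Postn), tenascin-C (Tnc), thrombospondins 1 to 3 (Thbs1, Thbs2 and Thbs3), SPARC (Sparc) and osteopontin (Spp1) were followed in cultured mouse cardiac fibroblasts. They were taken by gene symbol from the count table, which held all 8 of these symbols among its 35275 genes, and each of them passed the filter on low counts. RNA-Seq had been performed on 12 libraries, 3 in each of 4 groups. The cells came from hearts of C57BL/6 mice aged 12 weeks that carried the Smad7 floxed allele and were used at passage 2. Cells of every group, controls included, carried this allele and had been infected for 48 hours at 100 MOI. Control cells had received an adenovirus that the labels describe as GFP and the study's methods as empty, and Smad7-KO cells an adenovirus that expressed Cre. Either kind of cell was left unstimulated or was given TGF-β1 at 10 ng/ml, for 2 hours by one label and for 4 hours by another. The loss of Smad7 and the exchange of one virus for the other cannot be told apart in this design. The series describes the 3 libraries of a condition as independent samples without naming separate hearts, so that the p-values below measure the spread between these samples, which may be technical.

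Matricellular proteins are secreted into the extracellular matrix, where they act on cell adhesion and signaling more than as structural fibers. Fibronectin is itself a structural adhesive protein that cells assemble into fibrils through integrins, and it is grouped with them here because many of them bind it. Fibroblasts of the injured heart are known to produce several of these proteins, and TGF-β is a textbook inducer of fibronectin, periostin and tenascin-C. Smad7 is an inhibitory Smad that restrains TGF-β signaling and is itself induced by TGF-β.

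Several facts of the libraries bear on the values. The gene counts summed to between 19056916 and 25371321 per library. Smad7 levels in CPM (counts scaled to library size with edgeR's TMM factors) were 71.4, 74.6 and 77.2 in unstimulated control cells and 28.6, 28.4 and 31.1 in unstimulated Smad7-KO cells, a log2 fold change of -1.34, and -0.92 under TGF-β1. These counts cover the whole gene, not the floxed segment alone. Unstimulated control library 2 stood apart. In it, genes of the upper length tercile (over 3895 bases) had a median deviation from the mean of the 12 libraries of -1.09 log2 units relative to genes of the lower tercile (up to 2250 bases), whereas the other 11 libraries lay between -0.41 and 0.37. Among these, the 6 Smad7-KO libraries lay at 0.06 to 0.37 and the remaining control libraries at -0.41 to 0.24. The length deviation thus differed partly with genotype and was not confined to unstimulated control library 2. Of the 8 genes, 6 belong to the upper tercile (Fn1, Tnc, Thbs2, Thbs1, Postn and Thbs3), and 5 of these 6 had their lowest CPM of all libraries in unstimulated control library 2. Macrophage markers summed to between 10967 and 17349 FPKM, a level per gene length and library size, in every library. They ran from Cd163 (0.173 to 2.75 FPKM) to Lyz2 (6983 to 11932 FPKM). Fibroblast markers summed to 3318 to 6961 FPKM. They ran from Lum (0.198 to 0.817 FPKM) to Vim (846 to 1926 FPKM) and S100a4 (598 to 3493 FPKM). Endothelial markers summed to 76.6 to 90.2 FPKM in the 6 control libraries and to 8.95 to 10.6 FPKM in the 6 Smad7-KO libraries. Mesothelial markers summed to 121 to 146 FPKM in control and 71.9 to 92.6 FPKM in Smad7-KO libraries, smooth muscle markers to 13.5 to 47.5 and 7.88 to 29.7 FPKM, cardiomyocyte markers to 11.9 to 26.4 and 7.52 to 10.3 FPKM, and Schwann cell markers to 6.06 to 10.4 and 2.23 to 2.64 FPKM. Lymphocyte markers reached at most 1.20 FPKM. In these bulk samples, fewer cells of a type and less RNA per cell cannot be told apart.

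Compared per length, the 8 genes spanned more than 3 orders of magnitude of deposited FPKM, and their order was nearly the same in every library. Sparc, a collagen-binding glycoprotein, had the highest level of them, at a mean of 2617 FPKM in unstimulated control cells, 2933 in TGF-β1 control cells, 2089 in unstimulated Smad7-KO cells and 2049 in TGF-β1 Smad7-KO cells. This placed it at rank 10 to 14 of all 35275 genes. It was the first of the 8 in 11 of 12 libraries, the exception being unstimulated Smad7-KO library 3, where Spp1 reached 2196 FPKM and Sparc 2050 FPKM. Spp1, a phosphorylated integrin and CD44 ligand that macrophages also make, averaged 938, 689.9, 1827 and 1252 FPKM in the same order of groups. Fn1 averaged 648, 695, 769 and 732 FPKM and lay above Spp1 only in unstimulated control library 3 and TGF-β1 control library 1, so that these neighbours overlapped in control cells. Thbs1 came next, at place 4 in every library, with means of 295, 448, 260 and 339 FPKM. Postn (27.4, 39.6, 28.7 and 43.3 FPKM) and Tnc (18.6, 20.9, 34.4 and 32.6 FPKM) exchanged places: Tnc exceeded Postn in the 3 unstimulated Smad7-KO libraries and in none of the other 9. Thbs2 (8.59, 8.69, 10.7 and 6.99 FPKM) was at place 7 and Thbs3 (0.99, 1.00, 0.68 and 0.72 FPKM) at place 8 in all 12 libraries. Among the thrombospondins, Thbs1 took 95.5% to 98.0% of the summed FPKM of the 3 genes. Together the 8 genes received 0.980% to 1.98% of a library's counts, the lowest share being that of unstimulated control library 2 and the highest that of unstimulated control library 3.

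**Figure D1:**
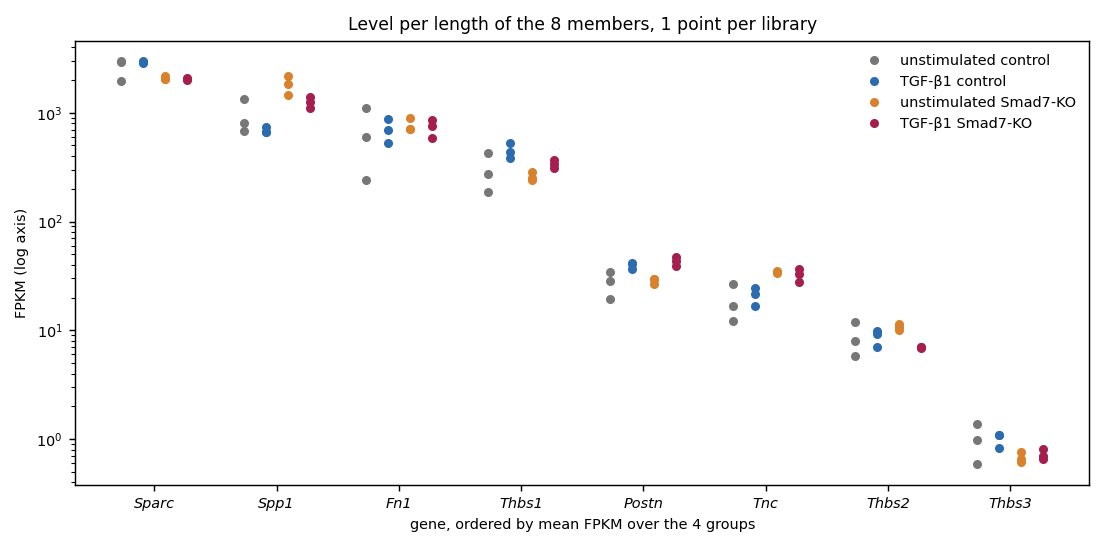
Deposited FPKM (log axis) of the 8 genes, ordered along the x axis by mean level, with 1 point per library colored by group. Sparc, Spp1, Fn1 and Thbs1 lay above Postn and Tnc in every library, with Thbs2 and Thbs3 lowest.

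The promoters of the 4 genes that passed the test in some comparison are shown, because they differ in the short motifs they hold. RefSeq windows of GRCm38.p6, 250 bases ending just before an annotated start, were at hand for 6 of the 8 genes. Capitals mark the TATA box letters TATAAA (gene strand) and the Smad box CAGACA or its reverse complement TGTCTG. The windows are chr3:54360857-54361106 (+ strand) for Postn, chr4:64047016-64047265 (- strand) for Tnc, chr11:55420081-55420330 (- strand) for Sparc and chr5:104434861-104435110 (+ strand) for Spp1, each printed on the strand of its gene.
Postn: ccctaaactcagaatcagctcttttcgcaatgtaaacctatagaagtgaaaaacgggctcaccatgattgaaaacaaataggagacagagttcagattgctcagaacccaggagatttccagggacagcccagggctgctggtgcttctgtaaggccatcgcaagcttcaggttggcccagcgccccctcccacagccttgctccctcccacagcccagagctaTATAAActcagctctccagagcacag
Tnc: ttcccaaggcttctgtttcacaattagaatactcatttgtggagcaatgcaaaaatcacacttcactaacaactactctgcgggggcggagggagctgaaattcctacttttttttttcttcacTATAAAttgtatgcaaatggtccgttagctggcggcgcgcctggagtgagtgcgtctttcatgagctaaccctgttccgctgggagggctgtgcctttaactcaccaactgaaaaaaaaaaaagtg
Sparc: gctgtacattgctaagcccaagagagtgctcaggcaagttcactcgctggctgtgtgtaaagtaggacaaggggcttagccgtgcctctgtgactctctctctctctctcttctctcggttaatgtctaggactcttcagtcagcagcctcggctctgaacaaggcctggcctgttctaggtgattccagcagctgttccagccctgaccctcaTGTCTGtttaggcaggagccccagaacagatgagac
Spp1: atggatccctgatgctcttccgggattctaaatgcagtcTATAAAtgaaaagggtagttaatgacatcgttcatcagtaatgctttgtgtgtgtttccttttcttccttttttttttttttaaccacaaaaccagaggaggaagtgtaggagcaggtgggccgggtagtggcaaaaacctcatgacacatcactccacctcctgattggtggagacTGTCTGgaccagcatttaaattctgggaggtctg
The Postn window held TATAAA 26 to 21 bases before the start and no Smad box. The Tnc window held TATAAA 126 to 121 bases before the start, and a second annotated Tnc start had a window with 1 Smad box as well. The Sparc window held a Smad box 36 to 31 bases before the start and no TATAAA, while the Spp1 window held a Smad box 34 to 29 bases and TATAAA 211 to 206 bases before the start. The nearest Thbs2 window held 2 Smad boxes, and the Thbs3 window held none of the motifs. No window of these genes held the AP-1 motif TGACTCA or the TEAD motif GGAATG on either strand. Over all 32851 windows of this length, 17.1% held a Smad box, 7.59% TATAAA, 4.46% the AP-1 motif and 12.6% the TEAD motif. A match is a description of these letters, not a site or a cause.

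Of the 8 genes, 4 passed the test in at least one of the simple comparisons. A gene was called where edgeR's quasi-likelihood test, adjusted by Benjamini-Hochberg over 15150 genes, gave a p of 0.05 or less, and every adjusted p below comes from this test unless another tool is named. Between unstimulated Smad7-KO and control cells, 2 of the 8 genes were called, Tnc and Spp1, both higher in Smad7-KO, where 25.8% of all genes tested were called. Under TGF-β1, 2 of 8 were called between Smad7-KO and control cells, Spp1 higher and Sparc lower, where 13.0% of all genes were called. TGF-β1 against unstimulated cells gave 0 of 8 calls in control cells, where 8.37% of all genes were called. There, 2 of 8 (Postn and Thbs1) had an unadjusted edgeR p under 0.05, beside 3073 of all 15150 genes tested. DESeq2 called 1 of the 8, Postn, and 1874 of all genes. In Smad7-KO cells, 1 of 8 was called, Postn, which was higher with TGF-β1, where 10.2% of all genes were called. These counts do not set the 8 genes apart from all genes tested. The median log2 fold change of the 8 genes was 0.16, -0.08, 0.13 and -0.01 in these comparisons, beside -0.02, -0.02, -0.03 and -0.01 over all genes tested. With unstimulated control library 2 left out, the medians of the 8 genes were -0.10, -0.06, -0.06 and -0.0004, so that the first and the third changed sign. The 3 libraries of each group did not overlap for 1 of 8 genes between unstimulated Smad7-KO and control cells (41.3% of all genes), 4 of 8 under TGF-β1 (44.9%), 1 of 8 between TGF-β1 and unstimulated control cells (19.8%) and 4 of 8 in Smad7-KO cells (39.0%).

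**Figure D2:**
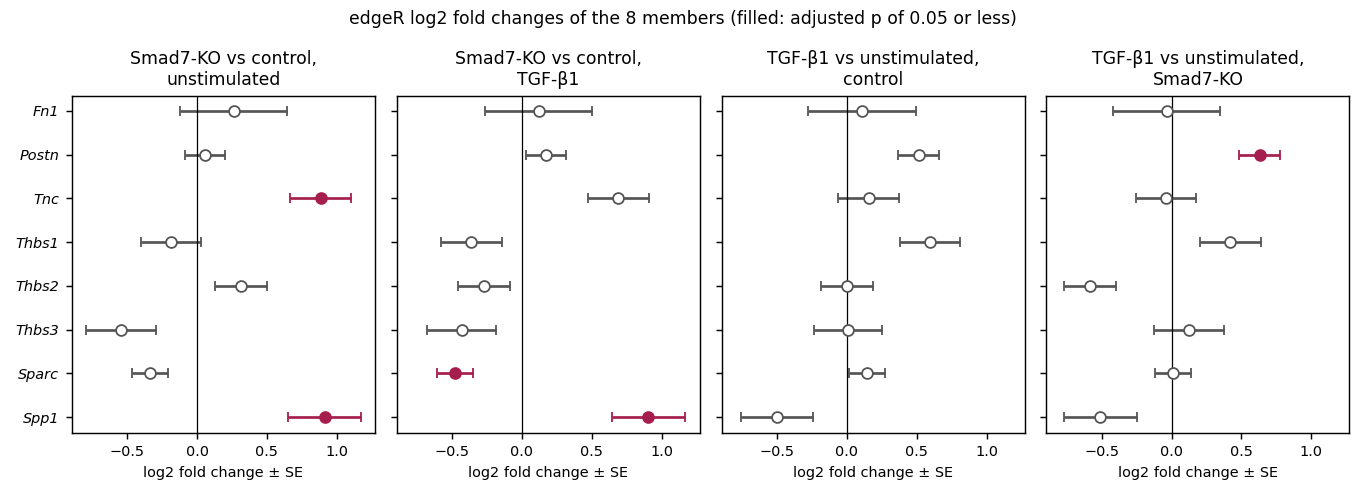
edgeR log2 fold change ± SE (x axis) of the 8 genes (y axis) in the 4 simple comparisons, with filled points where the adjusted p was 0.05 or less. The filled points are Tnc and Spp1 in unstimulated cells, Sparc and Spp1 under TGF-β1, and Postn for TGF-β1 in Smad7-KO cells.

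Fibronectin, the adhesive glycoprotein of the fibrillar matrix (chr1:71585520-71653200 on the - strand of GRCm38, 46 exons), differed most between replicates in unstimulated control cells. Fn1 reached 4846, 2187 and 8827 CPM in unstimulated control libraries 1 to 3, a 4.04-fold range. The values were 7116, 4318 and 5664 CPM in TGF-β1 control cells, 7313, 5889 and 5817 CPM in unstimulated Smad7-KO cells and 6331, 7316 and 4924 CPM in TGF-β1 Smad7-KO cells. The highest and the lowest of the 12 libraries were thus both unstimulated controls, and the groups overlapped in every comparison. The log2 fold change between Smad7-KO and control was 0.26 (SE 0.38, adjusted p = 0.615) in unstimulated cells and 0.12 (SE 0.38, adjusted p = 0.857) under TGF-β1. TGF-β1 against unstimulated cells gave 0.11 (SE 0.38) in control and -0.03 (SE 0.38) in Smad7-KO cells. Without unstimulated control library 3, the unstimulated difference was 0.85 (adjusted p = 0.0343), and without library 2 it was -0.11. A difference of Fn1 between these groups was therefore not resolved, since its sign turned on 1 control library.

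Periostin, a fasciclin-domain protein that binds collagen and fibronectin and marks activated cardiac fibroblasts, was called higher with TGF-β1 in Smad7-KO but not in control cells. Postn (chr3:54361109-54391034, + strand, 22 exons) reached 116, 129 and 127 CPM in unstimulated Smad7-KO cells and 189, 211 and 174 CPM in TGF-β1 Smad7-KO cells. All 3 stimulated libraries lay above all 3 unstimulated ones, the fold change was 1.55 (log2 0.63, SE 0.15, adjusted p = 0.0160), and Postn rose. Control cells gave 120.3, 92.5 and 144.3 CPM unstimulated and 177, 159.7 and 174 CPM with TGF-β1. These groups did not overlap either, with a fold change of 1.43 (log2 0.51, SE 0.15), but the adjusted p was 0.0512. With DESeq2 it was 0.0140 in control cells, and without unstimulated control library 3 the edgeR value was 0.00390. The other 11 of 12 fits that left out 1 library did not call Postn in control cells (adjusted p up to 0.163). Neither did 8 of the 9 alternative settings (adjusted p up to 0.289). Its log2 fold change there was 0.36 to 0.68 with 1 library left out. Smad7-KO and control cells differed by 0.06 (SE 0.15) unstimulated and 0.17 (SE 0.14) under TGF-β1 on the log2 scale, and their libraries overlapped. The Smad7-KO call was lost without any of the 3 unstimulated Smad7-KO libraries or TGF-β1 Smad7-KO library 1 or 2, with log2 fold changes of 0.55 to 0.69 over all 12 libraries left out in turn.

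Tenascin-C, a hexameric glycoprotein that appears at sites of injury and modulates adhesion to fibronectin, was higher in Smad7-KO cells. Tnc (chr4:63959785-64047015, - strand, 25 exons) reached 117, 93.7 and 183 CPM in unstimulated control cells and 248, 235 and 243 CPM in unstimulated Smad7-KO cells. Every Smad7-KO library lay above every control library, and the 3 Smad7-KO values were within a narrow range (242 ± 6.64 CPM, SD, n = 3). Tnc rose 1.85-fold (log2 0.88, SE 0.22, adjusted p = 0.0164). With TGF-β1, the values were 169, 118 and 152 CPM in control and 238, 267 and 203 CPM in Smad7-KO cells, again without overlap. Here the log2 fold change was 0.69 (SE 0.22) and the adjusted p 0.0592, so Tnc was not called under TGF-β1 by edgeR, while DESeq2 gave an adjusted p of 0.0154. Under TGF-β1, 6 of 9 alternative settings and 10 of 12 fits that left out 1 library did not call Tnc. TGF-β1 itself gave 0.16 (SE 0.22) in control and -0.04 (SE 0.22) in Smad7-KO cells, with overlapping libraries. The unstimulated call was lost without unstimulated control library 1 (adjusted p = 0.0565) and without unstimulated Smad7-KO library 1 or 3. It was also lost with edgeR on only the unstimulated libraries. With the trend of fold change on gene length removed, the log2 value was 0.58 and the adjusted p 0.0590.

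The thrombospondins bind cell-surface receptors such as CD47 and CD36, and thrombospondin 1 is also known to activate latent TGF-β. None of the 3 was called by edgeR in any comparison with all 12 libraries. Thbs1 (chr2:118111876-118127133, + strand, 22 exons) reached 1560, 1190 and 2386 CPM in unstimulated control cells and 3017, 2249 and 2495 CPM with TGF-β1. Unstimulated library 3 lay within the range of the stimulated ones, and the log2 fold change was 0.60 (SE 0.22, adjusted p = 0.136). In Smad7-KO cells the values were 1662, 1456 and 1397 CPM unstimulated and 2004, 2209 and 1830 CPM with TGF-β1. The stimulated libraries all lay above the unstimulated ones, at 0.42 (SE 0.22, adjusted p = 0.328), while edgeR on only these 6 libraries gave an adjusted p of 0.00103. The other 8 of 9 alternative settings and all 12 fits that left out 1 library did not call this difference. Under TGF-β1, all 3 Smad7-KO libraries lay below all 3 control libraries, with a log2 difference of -0.36 (SE 0.22, adjusted p = 0.290). Without unstimulated control library 3, the effect of TGF-β1 in control cells was 0.91 (adjusted p = 0.00260). The other 11 of 12 fits that left out 1 library did not call it (adjusted p up to 0.404). None of the 9 alternative settings called it.

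Thbs2 (chr17:14665500-14694262, - strand, 22 exons), which resembles Thbs1 but is not known to activate TGF-β, reached 46.3, 37.7 and 67.8 CPM in unstimulated control cells and 56.9, 41.5 and 54.0 CPM with TGF-β1. In Smad7-KO cells it reached 66.8, 59.7 and 62.6 CPM unstimulated and 41.8, 42.7 and 41.8 CPM with TGF-β1. The Smad7-KO groups did not overlap, and the log2 fold change with TGF-β1 was -0.58 (SE 0.19), at an adjusted p of 0.0785. DESeq2 called this difference (adjusted p = 0.0368), as did edgeR on only these 6 libraries (adjusted p = 1.73e-05). The other 7 of 9 alternative settings did not call it, nor did 10 of 12 fits that left out 1 library (adjusted p up to 0.232). Thbs2 was the only one of the 8 genes with an unadjusted edgeR p under 0.05 for the interaction (adjusted p = 0.980). Of all 15150 genes tested, 392 had such an unadjusted p. Thbs3 (chr3:89215180-89226837, + strand, 23 exons), a pentameric thrombospondin best known from cartilage, was scarce, at 2.47 to 5.36 CPM and 45 to 127 counts per library. Its log2 differences between Smad7-KO and control were -0.55 (SE 0.25) unstimulated and -0.43 (SE 0.25) under TGF-β1. The Thbs3 values are uncertain, because Mtx1 on the opposite strand overlaps it with 699 to 1202 counts per library, and the library kit did not mark strand.

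**Figure D3:**
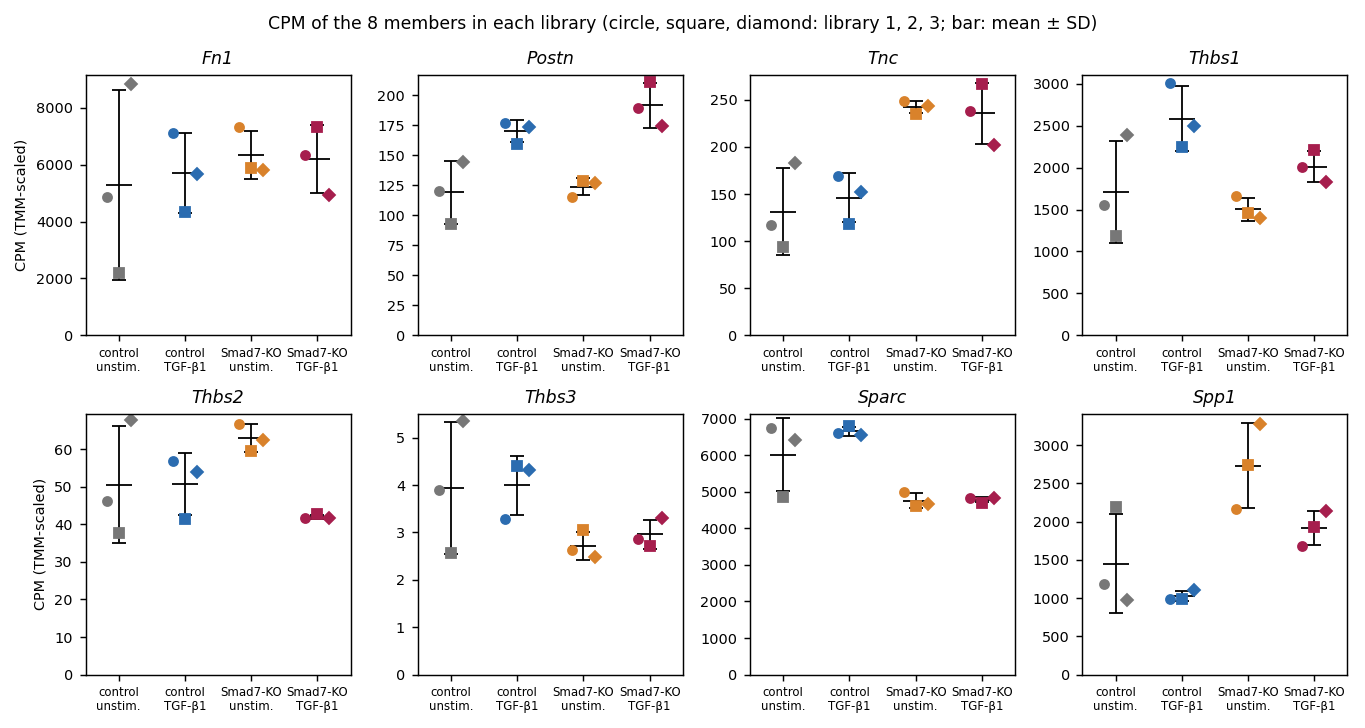
TMM-scaled CPM (y axis, linear from 0) of the 8 genes in each library, grouped along the x axis by genotype and stimulation, with circle, square and diamond for libraries 1, 2 and 3 and bars for the mean ± SD (n = 3). Unstimulated control libraries 2 and 3 lie far apart for Fn1, from 2187 to 8827 CPM, and the 3 unstimulated Smad7-KO libraries lie close together for Tnc, from 235 to 248 CPM.

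SPARC, also called osteonectin, binds collagen and acts on its processing into fibrils. Sparc (chr11:55394500-55420080, - strand, 10 exons) reached 6613, 6807 and 6560 CPM in TGF-β1 control cells and 4837, 4709 and 4825 CPM in TGF-β1 Smad7-KO cells. The groups did not overlap, and Sparc fell 1.39-fold (log2 -0.48, SE 0.13, adjusted p = 0.0312). Unstimulated control libraries gave 6747, 4874 and 6423 CPM and unstimulated Smad7-KO libraries 4995, 4615 and 4676 CPM. Control library 2 alone lay within the Smad7-KO range, and the log2 difference was -0.34 (SE 0.13) at an adjusted p of 0.0690, while DESeq2 gave an adjusted p of 0.0178. Without that library it was -0.46, with an adjusted p of 0.00165. This unstimulated difference was not called in 8 of 9 alternative settings or in 11 of 12 fits that left out 1 library. TGF-β1 against unstimulated cells gave 0.15 (SE 0.13) in control and 0.01 (SE 0.13) in Smad7-KO cells. The call under TGF-β1 was lost without any library other than the 3 unstimulated controls (log2 -0.49 to -0.45 over the 12 libraries left out in turn). It was also lost with the gene-length trend removed (-0.40, adjusted p = 0.278). In all, 5 of 9 alternative settings lost it. The others were no filter on low counts, limma on FPKM with either pseudocount, and the length trend removed with a replicate block.

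Osteopontin, a ligand of integrins and CD44, had the largest fold changes among the called genes with all 12 libraries. Spp1 (chr5:104435118-104441050, + strand, 7 exons) reached 1181, 2192 and 978 CPM in unstimulated control cells and 2169, 2737 and 3282 CPM in unstimulated Smad7-KO cells. Control library 2 lay just above Smad7-KO library 1, so that the groups overlapped, and the other 2 control libraries lay below every Smad7-KO library. Spp1 rose 1.88-fold (log2 0.91, SE 0.26, adjusted p = 0.0292), and without control library 2 the log2 value was 1.34. Under TGF-β1, the values were 988, 990.2 and 1101 CPM in control and 1687, 1931 and 2138 CPM in Smad7-KO cells, without overlap. Spp1 rose 1.87-fold there (log2 0.90, SE 0.26, adjusted p = 0.0425). TGF-β1 against unstimulated cells gave -0.50 (SE 0.26, adjusted p = 0.318) in control and -0.51 (SE 0.26, adjusted p = 0.320) in Smad7-KO cells, and all 3 stimulated Smad7-KO libraries lay below the unstimulated ones. The unstimulated call was lost without control library 1 or without Smad7-KO library 2 or 3. It was also lost with edgeR on only the unstimulated libraries (adjusted p = 0.141). The call under TGF-β1 was lost in 10 of the 12 fits that left out 1 library (log2 0.83 to 0.99) and was kept without unstimulated control library 2 or 3. Some macrophage markers moved with Spp1. Of 12 macrophage markers, 7 were higher and 0 lower in unstimulated Smad7-KO cells (12.1% of all genes higher) and 6 were higher and 0 lower under TGF-β1 (5.72% of all genes higher), with Itgam (log2 1.36 and 1.02) and Mrc1 (0.74 and 0.98) among them. The most abundant ones were not called, Lyz2 being at 0.21 and 0.40, C1qa at -0.28 and 0.10 and C1qb at 0.01 and 0.26, while Cd163 had log2 fold changes of -2.38 and -2.27 for TGF-β1 in control and Smad7-KO cells. The summed macrophage level was 11241 to 16912 FPKM in unstimulated control, 10967 to 12869 in TGF-β1 control, 15577 to 17349 in unstimulated Smad7-KO and 14481 to 16758 FPKM in TGF-β1 Smad7-KO libraries. The part of these markers in the Spp1 difference was not tested.

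**Figure D4:**
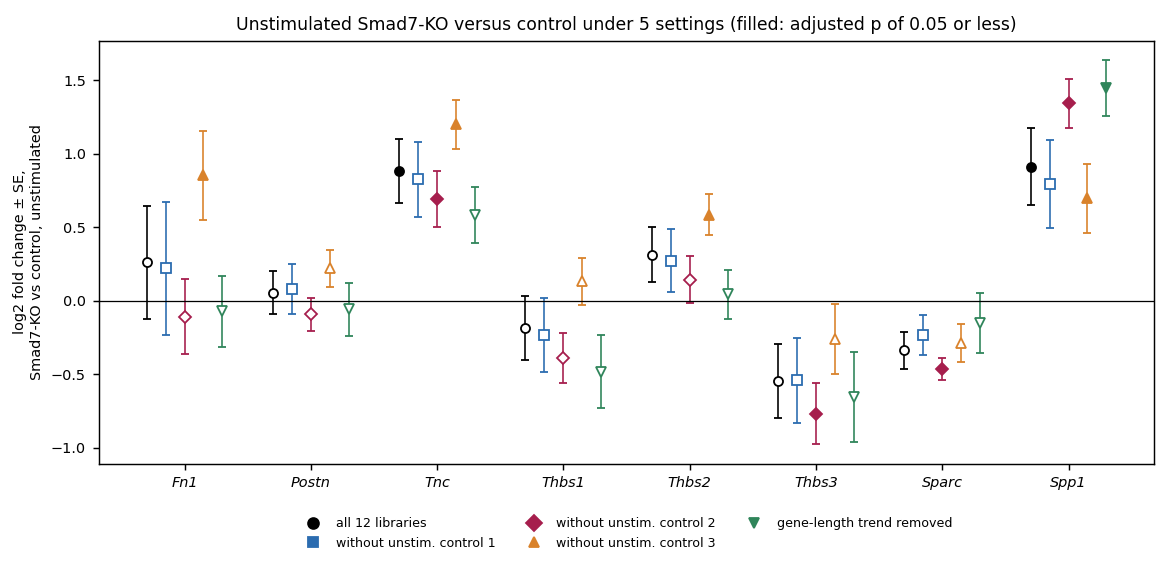
log2 fold change ± SE (y axis) between unstimulated Smad7-KO and control cells for the 8 genes (x axis), with all 12 libraries, without each unstimulated control library, and with the gene-length trend removed. Fn1 spans -0.11 to 0.85 and Postn and Thbs1 also change sign, whereas Tnc and Spp1 stay above 0 in all 5 settings.

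Whether the response to TGF-β1 differed between genotypes was tested with the interaction term. None of the 8 genes was called (0 of 8, edgeR's quasi-likelihood test, Benjamini-Hochberg adjusted), and 0.0198% of all genes were. DESeq2 and limma also called 0 of 8. An unadjusted edgeR p under 0.05 was reached by 1 of 8, Thbs2, and by 392 of all 15150 genes tested. The log2 responses of Thbs2 differed by -0.59 (SE 0.26, adjusted p = 0.980). The other interaction values were -0.14 for Fn1, 0.12 for Postn, -0.20 for Tnc, -0.18 for Thbs1, 0.12 for Thbs3, -0.14 for Sparc and -0.01 for Spp1. The Postn responses, 0.51 in control and 0.63 in Smad7-KO cells, were thus not shown to differ, although only the latter was called.

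Other matricellular relatives were mostly lower in Smad7-KO cells where they were called. Of 25 listed, 15 were tested, and in unstimulated Smad7-KO cells 8 of 15 were lower and 1 higher, where 13.7% of all genes were lower and 12.1% higher. Their median log2 fold change was -0.77. The lowest were Ctgf (-1.51, SE 0.20, adjusted p = 0.000767) and Cyr61 (-1.36, SE 0.10, adjusted p = 9.08e-06), CCN proteins that bind integrins, and the calcium-binding relatives of SPARC, Smoc2 (-1.49, SE 0.20, adjusted p = 0.000706) and Smoc1 (-1.48, SE 0.10, adjusted p = 9.02e-06). Under TGF-β1, 8 of 15 were lower and 1 higher in Smad7-KO, with a median of -0.93, where 7.23% of all genes were lower and 5.72% higher. Smoc1 (-1.46), the elastic-fiber protein Fbln5 (-1.26), Smoc2 (-1.13) and Cyr61 (-1.06) fell there. Tgfbi, a fasciclin-domain relative of periostin, was the 1 gene that rose in both comparisons, by 0.34 and 0.45. With TGF-β1, 6 of 15 rose and 0 fell in control cells (5.04% of all genes higher, 3.33% lower) and likewise 6 rose and 0 fell in Smad7-KO cells (5.33% higher, 4.90% lower). Wisp1, another CCN protein, rose by 2.73 in control and 2.36 in Smad7-KO cells, Tgfbi by 2.08 and 2.19, Ctgf by 1.80 and 2.27, and Comp, a thrombospondin, by 1.22 and 1.29. Without unstimulated control library 2, 8 of 16 relatives were lower and 1 higher in unstimulated Smad7-KO cells, 10 lower and 1 higher under TGF-β1, 6 higher and 1 lower with TGF-β1 in control cells and 7 higher and 2 lower with TGF-β1 in Smad7-KO cells. Over all genes, that fit called 1563 lower and 1450 higher in unstimulated Smad7-KO cells and 2134 lower and 2331 higher under TGF-β1. For TGF-β1 it called 892 higher and 798 lower in control cells and 1336 higher and 1199 lower in Smad7-KO cells.

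Receptors of matricellular proteins gave more higher than lower calls in Smad7-KO cells. Of 20 tested, 6 (30.0%) were higher and 2 (10.0%) lower in unstimulated Smad7-KO cells, beside 12.1% and 13.7% of all genes, with a median of 0.26. Under TGF-β1, 3 (15.0%) were higher and 1 (5.00%) lower, beside 5.72% and 7.23% of all genes, with a median of 0.21. Leaving out unstimulated control library 2 gave 5 higher and 1 lower in unstimulated cells (median 0.13) and 7 higher and 3 lower under TGF-β1 (median 0.23). Over all genes, that fit called 1450 higher and 1563 lower in unstimulated cells. Under TGF-β1 it called 2331 higher and 2134 lower, beside 866 and 1096 with all 12 libraries, so that calls over all genes rose as well. Itga4, the alpha chain of a fibronectin and osteopontin receptor that leukocytes carry, rose by 1.29 (SE 0.41, adjusted p = 0.0424) in unstimulated Smad7-KO cells. Stab1, a scavenger receptor that takes up SPARC, rose by 1.09 and 1.02, Itgb3 by 0.87 and 0.58 and the thrombospondin receptor Cd36 by 0.77 and 0.60 in unstimulated and stimulated cells. Itga8 fell by 1.09 under TGF-β1 (SE 0.27, adjusted p = 0.0229). The macrophage marker counts given for Spp1 stand beside these receptors as well, several of which macrophages also carry, and their part was not tested. With TGF-β1, 4 (20%) were higher and 2 (10.0%) lower in control cells, beside 5.04% and 3.33% of all genes. In Smad7-KO cells, 3 (15.0%) were higher and 2 (10.0%) lower with TGF-β1, beside 5.33% and 4.90% of all genes. Itga5, the alpha chain of the main fibronectin receptor, rose by 1.15 (SE 0.11, adjusted p = 4.92e-05) in control and 1.24 (SE 0.11, adjusted p = 2.32e-05) in Smad7-KO cells, Itgb5 by 0.93 and 1.24 and Itgav by 0.73 and 0.71, while Cd36 fell by 0.55 and 0.71. Fibronectin's own mRNA, as given above, was not called in either of these comparisons.

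Genes of fibronectin matrix assembly and crosslinking gave 3 calls in each of the simple comparisons. Of 17 tested (18 listed), 2 were higher and 1 lower in unstimulated Smad7-KO cells, 1 higher and 2 lower under TGF-β1, 3 higher and 0 lower with TGF-β1 in control cells, and 1 higher and 2 lower with TGF-β1 in Smad7-KO cells. These 3 of 17 are 17.6%, beside 25.8%, 13.0%, 8.37% and 10.2% of all genes called in the same order. Their medians were 0.02, -0.13, 0.29 and 0.09. When unstimulated control library 2 was left out, 2 were higher and 2 lower (median -0.14), 2 higher and 4 lower (-0.11), 3 higher and 2 lower (0.09) and 4 higher and 3 lower (0.10). Calls over all genes in that fit were 3013, 4465, 1690 and 2535, beside 3907, 1962, 1268 and 1550 with all 12 libraries. Tgm2, a transglutaminase that crosslinks fibronectin, was higher in all 4 comparisons, by 0.54, 0.76, 1.11 and 1.32 on the log2 scale. Ltbp1, which tethers latent TGF-β to the fibronectin matrix, had log2 fold changes of -0.50 and -0.97 between Smad7-KO and control cells and was higher with TGF-β1 in control cells by 0.79. Fblim1, an adaptor of focal adhesions, was higher in unstimulated Smad7-KO cells (0.89) and with TGF-β1 in control cells (0.66). Dpp4, a surface peptidase that binds fibronectin, fell by 0.95 in Smad7-KO against control cells under TGF-β1 and by 1.04 with TGF-β1 in Smad7-KO cells. Of the 20 early TGF-β targets, which include Ctgf and Smad7 itself, 15 rose and 0 fell with TGF-β1 in control cells (median 1.11) and 15 rose and 0 fell in Smad7-KO cells (median 1.24), led among well-expressed genes by Pmepa1 (2.16 and 2.56). Over all genes, 5.04% were higher and 3.33% lower with TGF-β1 in control cells, and 5.33% and 4.90% in Smad7-KO cells. Between Smad7-KO and control cells, 1 of the 20 was higher and 7 lower unstimulated (12.1% and 13.7% of all genes), and 1 higher and 5 lower under TGF-β1 (5.72% and 7.23%). Smad7 is the deleted gene, so that its own fall was set by the design, and Ctgf also belongs to the relatives above. Without unstimulated control library 2, 0 of the 20 were higher and 8 lower unstimulated, and 4 higher and 6 lower under TGF-β1. All genes gave 1450 higher and 1563 lower unstimulated in that fit, and 2331 higher and 2134 lower under TGF-β1.

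**Figure D5:**
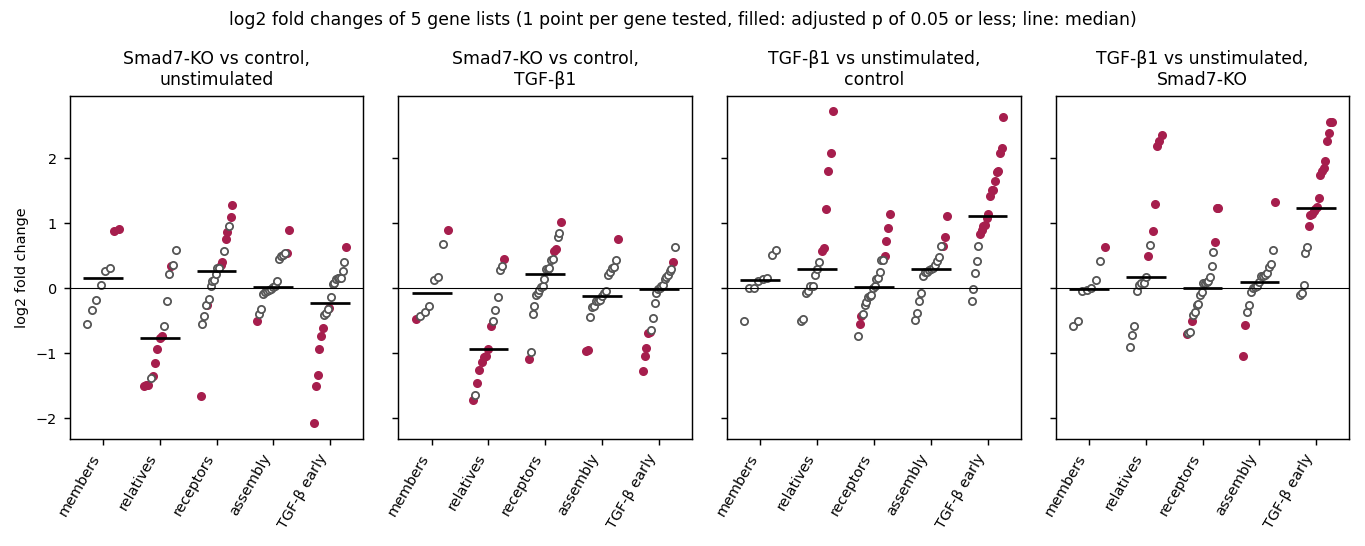
log2 fold changes (y axis) of the 8 genes (members) and of 4 lists, the relatives, receptors, assembly genes and early TGF-β targets, in the 4 simple comparisons, with 1 point per gene tested, filled where the adjusted p was 0.05 or less, and a line at the median. The relatives have their median at -0.77 and -0.93 between Smad7-KO and control cells, and the early targets at 1.11 and 1.24 for TGF-β1.

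Fibroblast markers, endothelial markers and mesothelial markers also differed between genotypes. Of 11 fibroblast markers, 2 were higher and 4 lower in unstimulated Smad7-KO cells and 2 higher and 3 lower under TGF-β1, beside 12.1% of all genes higher and 13.7% lower, and 5.72% and 7.23%. Thy1 (log2 -1.55 and -1.34), Tcf21 (-1.30 and -0.88) and Vim (-0.75 and -0.55) fell, Dcn (0.28 and 0.36) and the scarce Lum (0.80 and 1.41) rose, and the collagen genes Col1a1 (-0.02 and -0.28), Col1a2 (0.12 and -0.07) and Col3a1 (-0.04 and -0.20) were not called. Without unstimulated control library 2, 1 was higher and 3 lower unstimulated, and 3 higher and 5 lower under TGF-β1. All genes gave 1450 higher and 1563 lower unstimulated in that fit, and 2331 higher and 2134 lower under TGF-β1. Their summed level was 4844 to 6961 FPKM in control and 3318 to 4143 FPKM in Smad7-KO libraries. S100a4, also lower in unstimulated Smad7-KO cells (log2 -1.25, adjusted p = 0.0264), had medians of 1878 FPKM in control and 1012 FPKM in Smad7-KO libraries. Vim had medians of 1447 and 946 FPKM, Col3a1 of 822 and 782 FPKM and Dcn of 290 and 355 FPKM. Of 9 endothelial markers tested, 6 were lower and 1 higher in both comparisons, with Emcn at -5.02 and -4.87. The summed endothelial level was at most 90.2 FPKM, and Cldn5 was at 0 to 0.148 FPKM. The part of these differences in the Sparc and Tnc values was not tested.

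The genes with the most similar levels were found by Pearson's r of log2 CPM over the 12 libraries, among 9838 well-expressed genes. These values are a description, since the libraries share groups and length effects, the largest being that of unstimulated control library 2. Fn1 was most like Hspg2 (r = 0.998), a gene of 14187 bases beside the 8315 bases of Fn1. Tnc was most like Asxl2, Slc23a2 and Stard9, each at 0.994. Postn was most like Gspt1 (0.981) and Ski (0.979), and Thbs1 most like Plce1 (0.989). Sparc was most like Bmp6 (0.983), the collagen chaperone gene Serpinh1 (0.970) and Fbln5 (0.967). Spp1 was most like Rragc (0.961), Mmp3 (0.961) and D1Ertd622e (0.958). Among the 8 genes themselves, Sparc and Spp1 had the most opposite patterns, with r = -0.930 over the 12 libraries.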

How the data were processed

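Poly(A) RNA of 12 cultures (Trizol extraction, NEBNext Ultra libraries) was sequenced as 100-bp paired reads. The submitters' processing notes name the builds mm10 and GRCm38.p6 and the tools CASAVA, TopHat2 2.0, HTSeq 0.6.1 and Cufflinks 2.1.1, with no roles given. The authors deposited raw counts and FPKM values per gene, the FPKM equalling counts per kilobase of gene and per summed library count for all 35275 genes (within 1e-06). Library preparation did not keep strand, and no counting setting is given in the sources used here.

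Counts were filtered (filterByExpr, minimum count 10), TMM-scaled and fitted with edgeR 4.0.16 (quasi-likelihood, robust, group means over 12 libraries, R 4.3.3), called at a Benjamini-Hochberg adjusted p of 0.05 over 15150 genes. CPM, fold changes and interactions came from this fit; 3 against 3 libraries allow no exact permutation p under 0.10. Alternatives were DESeq2 1.42.0 and its size factors, only the libraries compared, no filter, limma 3.58.1 on log2 of the FPKM the authors deposited plus 1 or 0.1, a loess trend on gene length removed (span 0.3), a replicate block, and each library left out. The fit was tested on simulated data. No 2 libraries of a group agreed within sampling noise.

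The 8 genes and all gene lists were chosen with earlier results of these data known. Named list genes were those called, up to 4 by size of change per list and comparison, with a mean log2 CPM of 1 or more; for likeness, 3 genes per member with a mean of 3 or more. Promoter windows came from RefSeq (GRCm38.p6); Cyr61, Ctgf, Wisp1 and Wisp2 are CCN genes under their names in the table. Protein motifs were not analysed here. Some genes that the naming rule selects are not reported here.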

Additional observations from a re-analysis of the deposited data

How the results depend on the processing

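The number of the 8 genes called moved with the processing. Between unstimulated Smad7-KO and control cells it was 2, but 3 with DESeq2, 0 with only those libraries, 1 with the gene-length trend removed, 1 with this and a replicate block, and 0 to 4 with 1 library left out. Under TGF-β1 it was 2, but 3 with DESeq2, with its size factors and with only those libraries, 1 without the filter, 1 with either limma pseudocount, 1 with the length trend removed, 1 with this and the block, and 0 to 3 with 1 library left out, 0 in 9 of 12 such fits. For TGF-β1 in control cells it was 0, but 1 with DESeq2 and 0 to 3 with 1 library left out. For TGF-β1 in Smad7-KO cells it was 1, but 2 with DESeq2, 4 with only those libraries, 0 with either limma pseudocount and 0 to 3 with 1 library left out. The interaction stayed at 0 in every fit. Of 832 alternative values of single genes, 716 kept their direction and side of the threshold. Calls over all genes went from 3907 to 660 (only those libraries), 1381 (length trend removed), 1076 (with the block) and 1535 to 7979 (1 library left out) in unstimulated cells, where the cause was not tested. They went from 1962 to 2975 (DESeq2), 4453 (only those libraries), 1070 (length trend removed), 762 (with the block) and 883 to 4465 (1 library left out) under TGF-β1, from 1268 to 391 (only those libraries) and 825 to 3449 (1 library left out) for TGF-β1 in control cells, from 1550 to 3792 (only those libraries), 954 (length trend and block) and 985 to 2535 (1 library left out) in Smad7-KO cells, and from 3 to 16 (DESeq2), 2 (no filter), 1 (length trend removed), 0 (limma, block) and 0 to 6 (1 library left out) for the interaction. The split of higher and lower calls under TGF-β1 was 866 to 1096, but 1572 to 1403 with DESeq2, 1004 to 998 with its size factors, 2281 to 2172 with only those libraries, 595 to 1209 with limma (pseudocount 1), and 319 to 751 with the length trend removed; in control cells it was 763 to 505, but 744 to 251 with the length trend removed.

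Reversed directions belonged to differences that were not called. With the length trend removed they were Fn1 -0.071 and Postn -0.057 (unstimulated Smad7-KO against control), Fn1 -0.20 (under TGF-β1), and Fn1 0.12 and Tnc 0.18 (TGF-β1 in Smad7-KO cells), and with the block added -0.026, -0.052, -0.19, 0.10 and 0.17. For TGF-β1 in control cells, Thbs2 and Thbs3 were -0.007 and -0.0053 with DESeq2, -0.0071 and -0.0019 with its size factors, and Thbs2 -0.0006 with only those libraries; Spp1's interaction was 0.016 with DESeq2 and with its size factors. For TGF-β1 in Smad7-KO cells, Fn1 was 0.0031 with the block, and Sparc -0.027 with either limma pseudocount, with which (0.1) Thbs3's interaction was -0.0049. With 1 library left out, values ran, for unstimulated Smad7-KO against control, from -0.11 to 0.85 (Fn1), -0.092 to 0.22 (Postn) and -0.39 to 0.13 (Thbs1), and under TGF-β1 from -0.033 to 0.31 (Fn1). For TGF-β1 they ran in control cells from -0.26 to 0.70 (Fn1), -0.038 to 0.47 (Tnc), -0.17 to 0.28 (Thbs2) and -0.22 to 0.30 (Thbs3), and in Smad7-KO cells from -0.17 to 0.10 (Fn1), -0.14 to 0.056 (Tnc) and -0.014 to 0.044 (Sparc). For the interaction they ran from -0.73 to 0.24 (Fn1), -0.049 to 0.28 (Postn), -0.51 to 0.010 (Tnc), -0.49 to 0.044 (Thbs1), -0.17 to 0.35 (Thbs3), -0.24 to 0.0060 (Sparc) and -0.42 to 0.21 (Spp1). The mean level of Thbs2 in TGF-β1 Smad7-KO cells moved from 6.99 to 7.10 FPKM with TMM rescaling, more than its spread. Samples with the same number were correlated in their deviations from the group means at r = -0.36 to 0.52 over 18 pairs. Only 1 pair lay above 0.1, library 2 of unstimulated and of TGF-β1 control cells. These 2 libraries also had the lowest length deviation of their groups. The correlations therefore cannot decide whether the numbers pair the samples. With a replicate block, 2, 2, 0, 1 and 0 genes were called. Thbs3 had the fewest counts of the 8 genes, 45 to 127 per library, and for every gene 3 libraries per group limited the precision.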
